A study of Mus musculus with 2 samples.

Results

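The Gimap genes (GTPases of immunity associated proteins) were followed on 2 Affymetrix Mouse Genome 430 2.0 arrays, 1 of the colon and 1 of the small intestine. Their probe sets were taken by symbol, as all those that the platform annotation assigned to Gimap1, Gimap3, Gimap4, Gimap5, Gimap6, Gimap7, Gimap8 or Gimap9 and to no other gene. This gave 11 of 45101 probe sets, which covered all 8 genes among 18194 named genes, and each gene was represented by its brightest probe set over both arrays. The family was picked on earlier results of the same 2 arrays, that is on the log2 values of both tissues, so every value below is a description and none was tested.

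Both arrays held total RNA of tissue biopsies from wild-type adult mice, and the groups shared genotype and age and differed in the tissue. The labels name no treatment and do not say how many animals stand behind an array. The methods of the study describe jejunum and distal colon of C57B6 mice, but they refer to another deposit, so these details may not hold here. There are no replicates, and the precision of each difference is limited by having 1 array per tissue.

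Gimap proteins are GTP-binding proteins that sit mainly on intracellular membranes of lymphocytes, where several of them govern the survival of T and B cells. Loss of Gimap5 causes a severe loss of T cells in rats and mice, and Gimap1 is needed for mature T and B cells. The genes lie next to each other in 1 cluster on mouse chromosome 6. In the gut wall they can be read from intraepithelial lymphocytes, from lymphocytes of the lamina propria and of follicles, and for part of the family from endothelium. In such bulk tissue, fewer cells of a type and less RNA per cell cannot be told apart.

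The members share a position and differ in the sequence before their starts. Stretches of 150 bases before the RefSeq start are printed for the related genes Gimap3 and Gimap5 and for Gimap4, the brightest member, and also for Gimap7 and Gimap8, chosen after their values were seen as those with the largest differences between the tissues. The sequences are from RefSeq in GRCm38.p6 and run 5′ to 3′ on the gene's strand. Capitals mark GGAAG or its reverse complement CTTCC, the core of Ets factor motifs.

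Gimap3, chr6:48770852-48771001, minus strand: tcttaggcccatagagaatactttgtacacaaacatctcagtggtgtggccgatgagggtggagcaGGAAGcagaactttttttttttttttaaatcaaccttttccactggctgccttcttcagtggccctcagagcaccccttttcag
Gimap4, chr6:48684428-48684577, plus strand: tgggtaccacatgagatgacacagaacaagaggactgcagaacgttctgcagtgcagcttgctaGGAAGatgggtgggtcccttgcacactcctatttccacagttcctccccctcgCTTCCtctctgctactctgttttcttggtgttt
Gimap5, chr6:48746047-48746196, plus strand: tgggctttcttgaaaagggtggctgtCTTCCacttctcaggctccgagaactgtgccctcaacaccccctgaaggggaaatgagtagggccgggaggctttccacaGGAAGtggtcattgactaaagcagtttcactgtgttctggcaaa
Gimap7, chr6:48718471-48718620, plus strand: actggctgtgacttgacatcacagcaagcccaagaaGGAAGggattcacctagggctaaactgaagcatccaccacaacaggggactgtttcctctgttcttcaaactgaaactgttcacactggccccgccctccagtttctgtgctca
Gimap8, the first of 2 listed starts, chr6:48647084-48647233, plus strand: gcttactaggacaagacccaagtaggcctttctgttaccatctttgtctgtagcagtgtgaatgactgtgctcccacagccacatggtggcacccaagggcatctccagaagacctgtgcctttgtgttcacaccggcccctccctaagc

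Over the full 250 bases before the start, GGAAG was found on either strand in 8 of 9 member promoters, all but the first start of Gimap8, and in 64.1% of 32851 mouse promoters of the same length. The letters TGTGGT, the core of Runx motifs, were found in 3 member promoters (Gimap1, Gimap4 and Gimap7) and in 14.0% of all. TATAAA was found in 1, that of Gimap6, against 12.4% of all, and CACCC, a core of Klf motifs, in 6 against 52.0%. All words were searched on both strands, and a CACCC can share letters with a GGAAG or TGTGGT next to it. Member promoters held between 1 and 8 CpG dinucleotides, with a median of 6 over all promoters, and their GC content ran from 43.6% to 61.2% around an overall median of 52.4%. Gimap9 had the highest CpG count and GC content of the 9. These matches describe letters in a window and not sites that are bound.

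All 8 Gimap genes had a higher value in small intestine than in colon, although by very different amounts. At a difference of 3-fold or more, 4 of 8 were higher in small intestine, namely Gimap7, Gimap8, Gimap1 and Gimap6, and none was higher in colon. The 3-fold size was borrowed from the study, which set it for sequencing values, and was applied here to floored array values. Among the 11016 genes above background on either array, the same rule called 5.71% higher in small intestine and 5.49% higher in colon. The median difference of the members was 1.58 on the log2 scale, or 2.98-fold, beside a median of -0.06 over those 11016 genes. Differences are the small intestine minus the colon in log2 expression, with values below the background level of 5 raised to 5, and a fold against a raised value is a lower bound. Of the 8 members, 8 lay above that level in small intestine and 6 in colon.

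Gimap7, a member with GTPase activity of its own, had the largest difference. Its brighter probe set, 1425084_at, read 5.16 in colon and 7.95 in small intestine, which is a difference of 2.79, or 6.91-fold. Of the 11016 genes above background, 219 had a larger difference in that direction. Within the arrays this probe set stood at percentile 61.8 of all probe sets in colon and at percentile 82.2 in small intestine. The other probe set of the gene, 1444283_at, read 2.29 and 2.31, far below background on both arrays, so that the call for Gimap7 rests on 1 probe set.

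Gimap8, a large member that carries several GTP-binding domains in 1 chain, was bright in both tissues. Its probe set read 7.23 in colon and 9.26 in small intestine, a difference of 2.03, or 4.08-fold. Both values were well above background, so this fold does not depend on the floor. In percentiles of the arrays the probe set stood at 77.0 in colon and 89.6 in small intestine.

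Gimap1 was above background in small intestine alone. Its value was 4.74 in colon, below the background level, and 6.77 in small intestine, which makes it at least 3.40-fold higher there, with a floored difference of 1.77. Without the floor the same values give a difference of 2.02, or 4.06-fold. Raising the floor to 6 brings the difference to 0.77, under 3-fold.

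Gimap6, which has been linked to autophagy in lymphocytes, and Gimap3 lay close to the 3-fold line on either side. Gimap6 read 6.26 in colon and 7.89 in small intestine (3.09-fold, difference 1.63). Gimap3, a mouse gene closely related to Gimap5, read 6.07 and 7.59 (2.88-fold, difference 1.53). Gimap6 lay 0.04 above the line and Gimap3 0.06 below it on the log2 scale, both far less than the pooled SD of 0.61 between the differences of probe sets of the same gene, taken over 4142 genes. This SD is the disagreement of probe sets on the same 2 arrays and holds no variation between animals or arrays. A second probe set of Gimap6, 1456762_at, was below background in both tissues with 3.79 in colon and 3.69 in small intestine, the only member probe set with a higher value in colon.

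Gimap4, known for speeding the death of T cells, was the member whose 2 probe sets were both above background. Probe set 1424375_s_at, whose name marks probes shared between transcripts, read 8.68 in colon and 9.66 in small intestine, a difference of 0.98, or 1.97-fold. Probe set 1424374_at read 6.15 and 7.69, a difference of 1.54, or 2.91-fold. Both gave the same direction and both stayed under 3-fold.

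Gimap9 and Gimap5 had the smallest differences. Gimap9 read 6.69 in colon and 7.12 in small intestine, a difference of 0.42, or 1.34-fold, which is below the SD between probe sets given above. Gimap5 read 4.27 in colon and lay 0.0017 above the background level of 5 in small intestine. Its floored difference was thus the same 0.0017, its unfloored difference was 0.73, and no fold is given. A dim value of this probe set does not show that the transcript is absent.

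**Figure D1:**
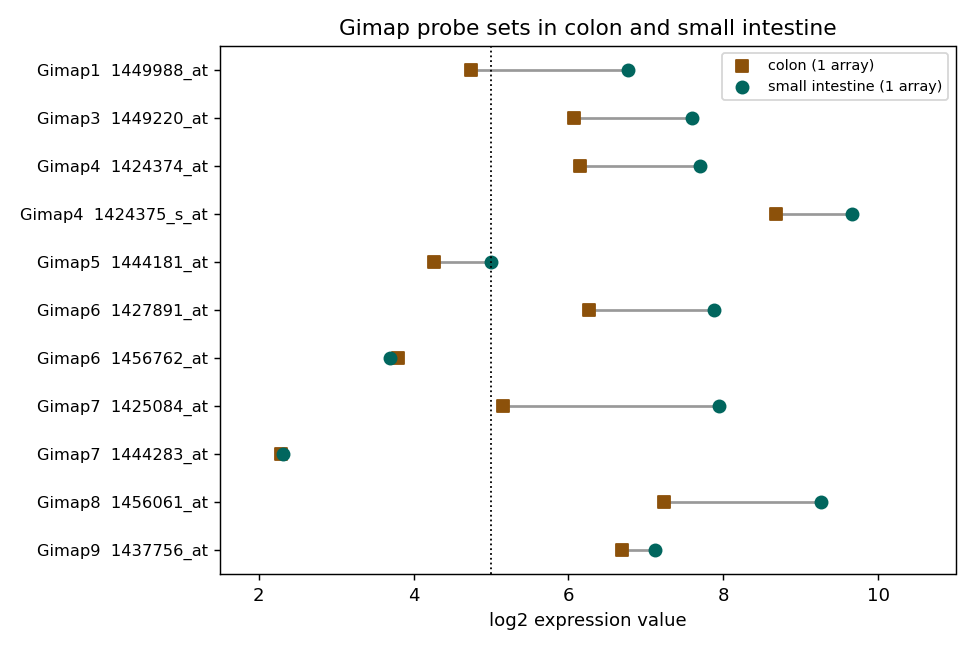
Log2 expression of the 11 Gimap probe sets (rows) on the colon array (brown squares) and the small intestine array (green circles); the dotted line marks the background level of 5. Of the 9 probe sets that exceed 5 on either array, all lie further to the right in small intestine, and the second probe sets of Gimap6 and Gimap7 stay left of the line.

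Set among all named genes, the members lay above the diagonal but not at its edge. Across the 11016 genes above background, the central 90% of floored differences ran from -1.64 to 1.72, and 3 members, Gimap1 (1.77), Gimap8 (2.03) and Gimap7 (2.79), lay past the upper end. A share of 46.8% of these genes had a floored difference above 0. The 5 genes whose pair of values was nearest to the median pair of the members (6.16 in colon and 7.74 in small intestine) were C2cd2l, Ccl11, Tapbpl, Foxq1 and Kdm2a, at distances of 0.07 to 0.10 on the log2 scale. Nearest to Gimap4, the brightest member, were Bcar1, Fez2, Tstd2, Ush1c and Rnpc3, at 0.01 to 0.07. Likeness over 2 arrays says only that these pairs of values coincide, and levels of different probe sets are not comparable as amounts of RNA.

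**Figure D2:**
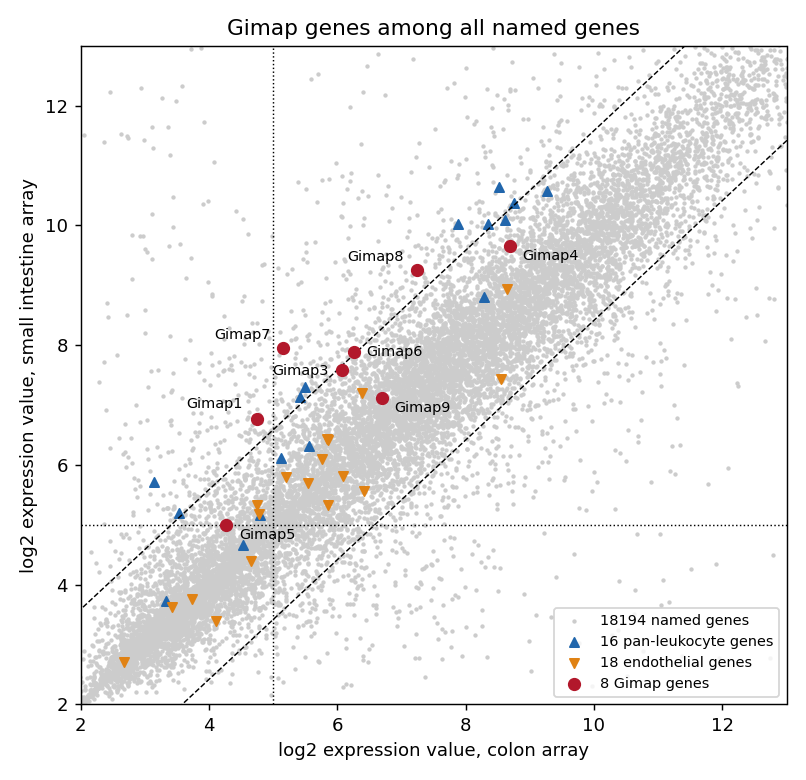
Each grey point is 1 of 18194 named genes, with log2 expression on the colon array (horizontal) and the small intestine array (vertical), dashed lines at 3-fold, and dotted lines at the background level of 5. The 8 Gimap genes (red) all lie above the diagonal, as do the 16 pan-leukocyte genes (blue triangles), while the 18 endothelial genes (orange triangles) lie between the dashed lines or below background.

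Beside the cluster, coding genes differed in both directions, and no other coding gene lies between its outermost members. Of the 8 nearest coding genes on each side, 12 of 16 were measured, and 9 were above background on either array. None was 3-fold higher in small intestine and 1 was in colon, beside shares of 5.71% and 5.49% over all genes above background. The gene called in colon, Zfp467, a zinc finger gene, read 7.71 in colon and 5.30 in small intestine (5.34-fold). On the side of Gimap8, Repin1, a replication initiator, was 2.25-fold, Zfp775 1.55-fold and Lrrc61 at least 1.28-fold higher in colon, whereas Rarres2 (chemerin) was 1.19-fold and the proton pump subunit gene Atp6v0e2 1.48-fold higher in small intestine. On the side of Gimap3, the 3 genes above background had higher values in small intestine. Tmem176b read 10.17 in colon and 10.66 in small intestine (1.40-fold). Its neighbour Tmem176a, which encodes a related membrane protein, read 9.62 and 10.78 (2.23-fold). Aoc1, the diamine oxidase that degrades histamine, read 9.74 and 10.63 (1.85-fold). Sspo, Doxl1 and Gpnmb were below background on both arrays.

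**Figure D3:**
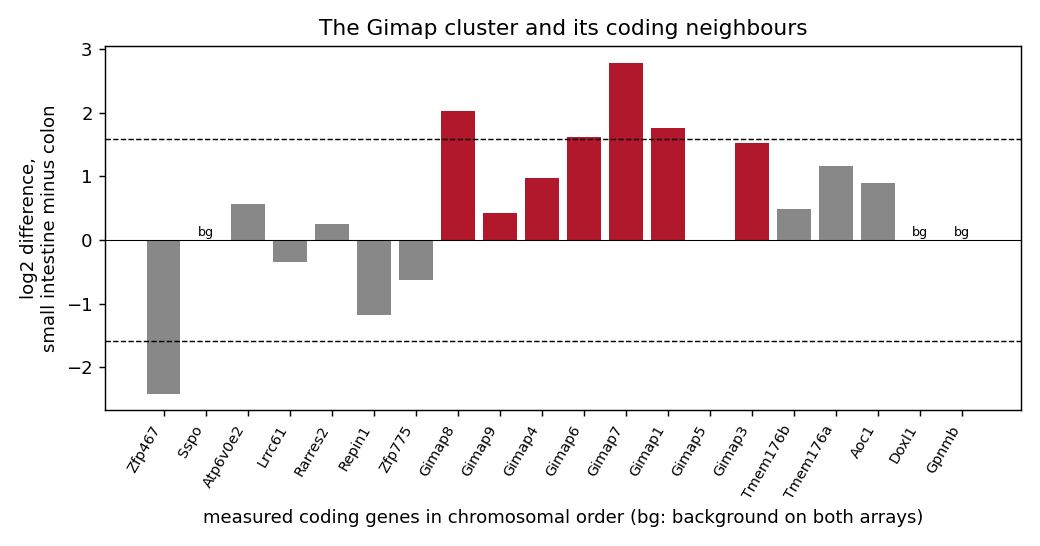
Floored log2 differences (small intestine minus colon) of the measured coding genes in their order along chromosome 6, with Gimap genes in red and neighbours in grey, dashed lines at 3-fold, and bg over genes below background on both arrays. Bars of 7 Gimap genes point up, that of Gimap5 is 0.0017, and no neighbour reaches the upper dashed line.

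Leukocyte markers differed in the same direction as the family. All 16 pan-leukocyte genes had higher values in small intestine, 6 of them by 3-fold or more and none in colon, with a median floored difference of 1.16. Ptprc, the CD45 phosphatase of all leukocytes, read 8.76 in colon and 10.37 in small intestine (3.06-fold). The actin regulator Coro1a (4.41-fold), the lysosomal protein gene Laptm5 (4.39-fold) and the adhesion receptor gene Cd48 (3.51-fold) were also called, and Cytip, a regulator of leukocyte adhesion, was 2.48-fold higher. Summed on the linear scale with the floor, the list came to 3009 units in colon and 8708 in small intestine. Rhoh and Cd37 were below background on both arrays. Without shared probe sets (marked _x, _s or _a, matching several transcripts of 1 or more genes), 3 listed genes were called, Arhgdib, Cd48 and Lcp1. The calls of Ptprc, Coro1a and Laptm5 rest on shared probe sets and were lost, and the value of Cytip is also from a shared one. The list median was then 0.19, over the genes that had another probe set. The part of a different leukocyte content in the Gimap differences was not tested.

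Among the leukocyte lists, cytotoxic and intraepithelial lymphocyte genes had the largest median when the brightest probe set stood for a gene. Of the 15 measured, 9 were at least 3-fold higher in small intestine and none in colon, with a median of 2.08. Granzyme A (Gzma) differed by 4.62, the chemokine Ccl5 by 4.54 and the gut homing receptor Ccr9 by at least 4.35, so that each exceeded the largest Gimap difference. Id2, a transcription regulator of innate lymphocytes, differed by 1.69. The values of Gzma, Ccr9 and Id2 come from shared probe sets, whereas that of Ccl5 does not. Without shared probe sets, 5 genes were called, Ccl5 among them, and the median was 1.27. With the median over probe sets, 5 were called and the list lost its rank. Its median of 0.71 was then below those of myeloid (0.87), pan-leukocyte (0.76) and plasma cell genes (0.73). The list summed to 2198 units in colon and 15615 in small intestine, and Prf1, Klrk1 and Fasl lay below background in both.

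Genes of the T cell receptor and its co-receptors were mostly dim. Of 16 measured, 3 were higher in small intestine and none in colon, with a median of 0.17 and sums of 588 and 1320 units. Cd3g read 5.34 in colon and 8.31 in small intestine (7.85-fold), and Cd3d read 5.33 and 8.10 (6.79-fold). Cd8a was 3.06-fold higher. The kinase gene Zap70 was 1.42-fold higher, and Cd3e read 4.84 and 5.19. The probe sets of Cd2, Cd4, Cd5, Cd27, Cd28, Cd8b1 and Themis were below background on both arrays, so that no difference could be measured for them. Before the floor was applied, 16 of 16 had a higher value in small intestine. Counts before the floor, here and for the lists below, include genes at background. All 5 erythroid genes, below background on both arrays, were also higher in small intestine before the floor. The median unfloored difference over all 18194 named genes was 0.01.

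Genes of naive and recirculating lymphocytes, in which several Gimap genes are known to be high, had higher values in small intestine for 8 of 10 before the floor, with Foxp1 and Satb1 the other way. After the floor 2 of 10 were called in small intestine and 1 in colon, with a median of 0.00 over all and of 1.02 over the 6 above background. Il7r, the receptor for the survival cytokine IL-7, read 4.70 in colon and 7.69 in small intestine (at least 6.46-fold). Ets1, an Ets factor of lymphocytes, read 6.52 and 8.85 (5.04-fold), while Foxp1 read 10.13 and 8.43 (3.24-fold higher in colon). Klf2 was 1.55-fold higher in small intestine. Ccr7, Lef1, S1pr1 and Dapl1, which mark naive or recirculating cells, were below background in both tissues. The list summed to 1606 units in colon and 1468 in small intestine, an order set by Foxp1, since without this brightest gene the sums were 487 and 1123. The call of Ets1 rests on a shared probe set, without which 1 gene was called in small intestine, and none was called there with the median over probe sets.

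Of 15 B cell genes, 13 had a higher value in small intestine before the floor, with a median difference of 1.02. The 13 include Cr2 (0.01), Pax5 (0.01) and Cxcr5 (0.02), whose differences lie at background. After the floor 1 of the 10 above background was called in each tissue, with 5.71% and 5.49% called over all genes above background. The median over all 15 was 0.30. Cd79b of the B cell receptor was 3.82-fold higher in small intestine and the adaptor Blnk 3.89-fold higher in colon. H2-Ob was 2.73-fold and Ms4a1 (CD20) 2.20-fold higher in small intestine. Cr2, Fcer2a, Pax5, Cxcr5 and Cd37 were below background on both arrays, and the list summed to 1813 units in colon and 1244 in small intestine. Blnk set this order, since without it the sums were 545 and 918. Of 10 plasma cell genes, 3 were higher in small intestine (Pou2af1 8.03-fold, Mzb1 4.61-fold and Prdm1 3.67-fold) and none in colon, with a median of 0.86 and sums of 21842 and 32800 units. The bright members of the list differed less, with Jchain 1.86-fold and Xbp1 1.37-fold higher in small intestine and Sdc1 1.40-fold higher in colon.

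Among 16 myeloid genes, 14 of them above background, 1 was called in each tissue, Aif1 in small intestine (3.70-fold) and Cd14 in colon (3.59-fold). The median was 0.75, and the sums were 5772 and 8890 units. These shares are near those of all genes above background, while 12 of the 16 had a higher value in small intestine before the floor. Aif1 was read from a shared probe set, without which no myeloid gene was called in small intestine, and 5 were called there after centring on spike-ins. The complement gene C1qc was 2.97-fold and C1qb 2.95-fold higher in small intestine, Csf1r 1.68-fold and Lyz2 1.23-fold. Itgam and Fcgr1 were below background in both. The 9 genes listed for lymphoid follicle stroma had a median of 0.00 and sums of 1534 units in colon and 2086 in small intestine. Il33 (15.6-fold) and Ltbr (4.13-fold) were higher in small intestine. Gp2 (at least 5.89-fold), which is not a stromal gene, and Glycam1 (at least 3.05-fold) were higher in colon. Both calls in colon were lost with a floor of 6 and without shared probe sets. Tnfsf11 and Madcam1 lay below background on both arrays.

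None of the 18 measured endothelial genes, 13 of them above background, reached 3-fold in either direction. With so few genes, this is near the shares of 5.71% and 5.49% over all genes above background. The median was 0.08, and the sums were 1545 units in colon and 1542 in small intestine. Plvap read 8.65 in colon and 8.94 in small intestine (1.23-fold). Lyve1 was 2.16-fold and Flt1 1.81-fold higher in colon, and Egfl7 1.78-fold higher in small intestine. Pecam1, Tie1, Robo4, Erg and Sox18 were below background in both tissues.

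**Figure D4:**
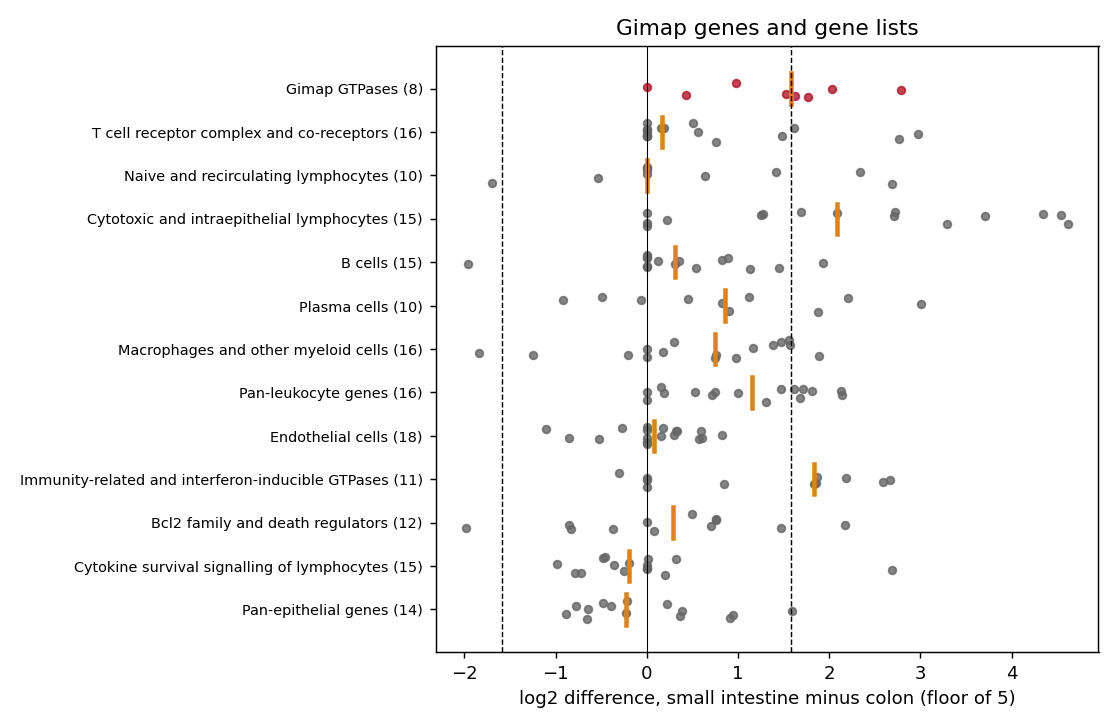
Floored log2 differences (small intestine minus colon) of the Gimap genes (red) and of 12 gene lists (grey, with the number measured), with medians as orange bars and dashed lines at 3-fold. The Gimap median of 1.58 lies between those of pan-leukocyte genes (1.16) and of interferon-inducible GTPases (1.83), and the endothelial median is 0.08.

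Another group of immune GTPases, those induced by interferon, which act on membranes of intracellular pathogens, had a median in the same direction. Of 11 measured, 6 were at least 3-fold higher in small intestine and none in colon, with a median of 1.83. Igtp read 7.62 in colon and 10.28 in small intestine (6.33-fold), Iigp1 read 6.22 and 8.81 (6.01-fold), and Gbp3 read 5.83 and 8.02 (4.56-fold). Their close relative Irgm1 went slightly the other way with 8.01 and 7.71, and Mx1 and Mx2 were below background in both.

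Gimap proteins have been tied to proteins of the Bcl2 family and to cytokine-driven survival. Of 12 measured Bcl2 family genes, the pore former Bak1 (4.52-fold) was higher in small intestine and the killer gene Bik (at least 3.96-fold) in colon, with a median of 0.28. A call of 1 of 12 in each tissue is near the shares of all genes above background (5.71% and 5.49%). Neither call was kept with the median over probe sets. Pmaip1 (Noxa) was 2.78-fold higher in small intestine, while Bcl2 itself read 7.31 in colon and 6.46 in small intestine, and Bcl2l11 (Bim) 6.53 and 6.54. Of 15 genes of cytokine survival signalling, 12 of them above background, Il7r alone passed 3-fold, and the median was -0.19. That share too is near the one of all genes, and the call was lost with the median over probe sets. Gsk3b was 1.98-fold and Foxo3 1.73-fold higher in colon.

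The labels of both tissues were borne out by epithelial genes. Of 11 measured genes of small intestine epithelium, 10 were higher in small intestine, and of 10 of colon epithelium, 9 were higher in colon, while Vil1 (3.02-fold) was the single one called among 14 pan-epithelial genes and none of 9 housekeeping genes was called. Other tissues differed too: 5 of 12 smooth muscle genes and 9 of 9 exocrine pancreas genes were higher in colon, none of either in small intestine. The pancreas list summed to 48282 units in colon and 545 in small intestine, and the smooth muscle list to 38792 and 17991. Of 7 adipose genes 1 was higher in each tissue, and all 5 erythroid genes lay below background. The arrays also differed in the signal lost toward the 5′ end, by amounts that depended on the transcript. The 3′ probe set exceeded the 5′ one by 4.46 in colon and 4.80 in small intestine for beta-actin, and by 2.32 and 3.61 for Gapdh. For the poly-A spike-ins the excess was 3.94 and 6.80 (dap), 1.34 and 4.04 (phe), and 5.38 and 8.27 (thr). The part of these 5′ signal differences, and of the muscle and pancreas signal of the colon array, in the Gimap values was not tested.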

How the data were processed

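Tissue RNA (Qiagen RNeasy, Bioanalyzer control) was biotin-labelled and hybridised by the authors, 1 array per tissue. The deposited values are normalized log2 expression per probe set, between 0.73 and 16.97, with medians of 4.01 (colon) and 3.99 (small intestine). The processing notes name GCRMA and the study's methods RMA, with no version. GCRMA can widen folds against dim values. Values were used as deposited.

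Probe sets were named through the platform annotation, with 34754 of 34958 single-gene probe sets matched by identifier to RefSeq (GRCm38.p6). The brightest probe set stood for a gene. The background of 5 lies above all 80 olfactory and vomeronasal receptor probe sets, of which the highest value was 4.78. A gene was called at 3-fold after flooring. Having 1 array per tissue, the comparison has no test. The procedure was tested on simulated data in which only genes bright in colon were changed, so the recovery of changes near background was not tested.

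The members and the 20 gene lists (240 of 272 entries measured) were chosen with earlier results of these data known. Named list genes were up to 3 per list with the largest differences and, for leukocytes and endothelium, the highest levels, beside genes named after their values were seen. Epithelial, muscle, adipose, pancreas, erythroid and housekeeping lists are given by counts, with sums for muscle and pancreas. Alternatives were floors of 4 and 6 or none, folds of 2 and 5, 3 scalings and 3 choices of probe set. Analyses used Python 3.11.15, numpy 2.4.6, pandas 2.3.3 and matplotlib 3.10.9.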

Additional observations from a re-analysis of the deposited data

How the results depend on the processing

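No member turned to the colon under any of the 11 alternatives, of which 9 give a difference: of 72 member values, 69 were above 0, 3 were at 0 (Gimap5 with a floor of 6, and Gimap6 and Gimap7 with the dimmest probe set) and none was below. Few alternatives could have turned a member. Gimap1, Gimap3, Gimap5, Gimap8 and Gimap9 have 1 probe set each, and centring shifts all genes by the same amount before the floor. The dimmest probe set of Gimap6 has an unfloored difference of -0.10, which the floor sets to 0. The median of the members ran from 0.98 to 1.83. The count of members called in the small intestine was 4 in the report, 1 (Gimap7) at 5-fold, and 2 (Gimap1 and Gimap8) both with the median over probe sets and with the dimmest probe set, because the second probe sets of Gimap6 and Gimap7 are below background. It was 3 with a floor of 6, where Gimap1 is lost, and 5 after centring on hybridization spike-ins, where Gimap3 (1.78) is added. Of the genes in the lists, 76 were called in either direction and 42 at 5-fold. Without probe sets marked _x, _s or _a, list counts in the small intestine went from 6 to 3 (pan-leukocyte), 9 to 5 (cytotoxic), 2 to 1 (naive) and 1 to 0 (myeloid), and in the colon from 5 to 3 (smooth muscle), 2 to 0 (follicle stroma) and 1 to 0 (Bcl2 family). List sums without the brightest gene, tried after seeing the data, turned their order for naive lymphocytes and B cells. No replicate spread could be measured. No paired analysis was possible because each tissue has 1 array.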
